A study of Mus musculus with 36 samples.

Results

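The genes described here are 10 mouse genes for heat shock proteins and chaperones, out of 45706 genes in the count tables: Hspa1a, Hspa1b, Dnajb1, Hsph1, Hspa8, Hsp90aa1, Hsp90ab1, Hspd1, Hspe1 and Dnaja1. They were chosen because their RNA was higher in naive CD4 T cells of the Ets1-SE-KO strain than in wild-type cells, so that difference is given below as a description without a test. Comparisons among helper cells use other libraries and were tested. Those of helper with naive WT cells share the naive WT libraries with the choice, and their values are given for these genes without p-values. All mice were C57BL/6J, and the mutants carry the name C57BL/6J-Ets1-SE-KO, here KO; by this name they lack a super-enhancer of Ets1, a transcription factor gene of T cells. The labels state neither the age nor the sex of the mice, nor the extent of the deletion.

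Naive CD4 T cells were taken from spleen by negative selection on beads. Naive cells gave 2 WT and 2 KO libraries, and a first set of cultured helper cells gave 3 libraries each of WT Th1, KO Th1, WT Th2 and KO Th2 cells. For Th1 cells, naive cells were activated with antibodies against CD3 and CD28 and cultured with interleukins 12 and 2; no source used here describes the Th2 culture. A second Th1 experiment gave 2 untransduced WT and 2 untransduced KO libraries, 4 libraries of WT cells that received an empty retrovirus (EV), and 4 of KO cells that received a virus encoding Ets1 (Ets1-RV). Numbers marked B and T stand in every title, and their meaning is unstated. All naive and first-set libraries have B number 1 and differ in T number alone; in the second experiment libraries of 1 group and B number were summed, so n = 2 there. A further 8 libraries, whose title and transduction label name different viruses, entered no comparison. Nothing in the labels says that libraries of a group came from separate animals, so p-values measure only the spread between libraries, which may be technical.

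Depth ran from 5069623 to 5852673 gene counts in naive libraries, from 7311614 to 10256407 in the first Th1 and Th2 libraries and from 1813288 to 6844944 in second-experiment libraries that entered a group. Ets1 itself was at 1807 to 1813 CPM (a gene's counts scaled to the same total in every library, the usual CPM unit) in naive WT and at 706 to 709 CPM in naive KO cells, and lower in KO than in WT libraries in the first Th1, Th2 and untransduced Th1 sets. The summed level of 7 CD4 T cell markers was 1518 CPM or more in every labelled library. Markers of Th1 cells summed to 1157 to 1617 CPM in WT Th1 and 114 to 174 CPM in WT Th2 cells of the first set. The 4 Th2 markers were not confined to Th2 cells: they reached 184 to 380 CPM in WT Th1 and 413 to 862 CPM in KO Th1 libraries of that set, beside 698 to 771 CPM in WT Th2 libraries.

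Heat shock proteins are molecular chaperones, which bind unfolded or partly folded proteins and help them fold, refold or be degraded. Proteins of the HSP70 family bind short exposed stretches of a client protein in a cycle of ATP binding and hydrolysis, J-domain proteins such as Dnajb1 and Dnaja1 bring clients and start hydrolysis, and exchange factors such as Hsph1 release the nucleotide. HSP90 proteins finish the folding of clients that include kinases and steroid receptors, and the chaperonin Hspd1 with its lid Hspe1 folds proteins inside mitochondria. Under heat or other protein stress the transcription factor Hsf1 binds heat shock elements, which are alternating repeats of GAA and TTC, and raises transcription of the inducible members. In T cells, chaperone RNA also rises as resting cells become activated and start to grow.

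In the GENCODE M21 annotation of GRCm38, Hspa1a (ENSMUSG00000091971) lies at chr17:34969190-34972156 and Hspa1b (ENSMUSG00000090877) at chr17:34956436-34959238, both on the minus strand. Hsp90ab1 lies on the same chromosome at chr17:45567775-45573271. Hspd1 (chr1:55077835-55088243, minus strand) and Hspe1 (chr1:55088132-55091307, plus strand) overlap at their 5′ ends. Each of the other genes lies alone among the 10 on its chromosome: Dnajb1 at chr8:83608193-83612653, Hsph1 at chr5:149614287-149636376, Hspa8 at chr9:40800984-40810087, Hsp90aa1 at chr12:110690605-110702728 and Dnaja1 at chr4:40722150-40737149. All values below are for whole genes, with reads counted over exons.

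The promoters show what the inducible pair has in common. Of the 10 genes, 7 had an entry in the RefSeq promoter table used (GRCm38.p6), all but Hspa8, Hsp90aa1 and Hsp90ab1. In the 250 bases before the start, the 2 inverted pairs GAANNTTC and TTCNNGAA, each of which reads the same on both strands, were searched and may overlap. At least 1 pair was found in 5 of the 7 genes, and in 12.8% of 32817 promoter windows of this length. The promoters of Hspa1a and Hspa1b differ at 1 of the last 150 bases. Those bases are shown, at chr17:34972157-34972306 for Hspa1a and chr17:34959239-34959388 for Hspa1b on the minus strand, 5′ to 3′ up to the start, with the pair in capitals at 104 to 97 bases before it.
Hspa1a: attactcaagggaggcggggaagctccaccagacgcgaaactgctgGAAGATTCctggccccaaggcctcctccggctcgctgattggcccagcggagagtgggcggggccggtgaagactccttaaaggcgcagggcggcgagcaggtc
Hspa1b: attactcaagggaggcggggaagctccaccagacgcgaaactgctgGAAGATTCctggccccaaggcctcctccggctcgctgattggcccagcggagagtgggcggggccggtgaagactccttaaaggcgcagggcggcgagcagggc

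Hspe1 was the 1 gene of the 7 with 3 alternating units in a row, GAANNTTCNNGAA or TTCNNGAANNTTC, a form found in 0.466% of promoter windows. Short stretches around the matches are shown for it at chr1:55088054-55088081 on the plus strand, for Hsph1 at chr5:149636357-149636374 on the minus strand and for Dnaja1 at chr4:40722339-40722356 on the plus strand, with the pairs in capitals. Starts here are those of RefSeq. The Hsph1 start lies 40 bases and the Dnaja1 start 318 bases from the GENCODE start, so the stretches of both lie within the GENCODE genes, and that of Hspe1 lies within the overlapping Hspd1 gene.
Hspe1: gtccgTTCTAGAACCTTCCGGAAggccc
Hsph1: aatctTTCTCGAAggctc
Dnaja1: ctctaGAAAATTCtacga
The windows of Dnajb1 and Hspd1 held neither pair. A match is a description of letters, not of binding, and no binding was measured here.

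In naive cells the 2 inducible HSP70 genes stood furthest apart between genotypes. Hspa1a, which encodes stress-inducible HSP70, was at 21.0 and 25.3 CPM in the WT libraries and at 365 and 318 CPM in the KO libraries. The log2 difference, KO minus WT, was 3.87 (SE 0.095). Its near-identical neighbour Hspa1b was at 73.6 and 71.1 CPM in WT and at 841 and 810 CPM in KO cells, a log2 difference of 3.50 (SE 0.072). For both genes the KO libraries lay far above the WT libraries, by more than the gap between libraries of 1 genotype. These differences are the values the genes were chosen on, and no test is given.

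The J-domain and exchange partners of HSP70 differed by 0.53 to 1.66 on the log2 scale. Dnajb1, a J-domain protein that works with inducible HSP70, was at 124 and 136 CPM in WT and at 434 and 395 CPM in KO libraries (log2 difference 1.66). Hsph1, an exchange factor for HSP70, was at 175 and 172 CPM in WT and at 441 and 461 CPM in KO libraries (1.37). Dnaja1, a second cytosolic J-domain protein, was at 124 CPM in both WT libraries and at 172 and 188 CPM in KO libraries (0.53). Thus Dnajb1 and Hsph1 differed by more than Dnaja1. Dnaja1 and Dnajb1 had like CPM in WT cells, but not per kilobase of exon (14.4 and 40.5 CPM).

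The constitutive HSP70, the HSP90 genes and the mitochondrial genes differed by 0.18 to 1.02 on the log2 scale. Hspa8, the HSP70 present in unstressed cells, was at 1293 and 1268 CPM in WT and at 2211 and 2149 CPM in KO libraries (log2 difference 0.76). Hsp90aa1, the inducible cytosolic HSP90, had 516 and 491 CPM in WT and 1062 and 1000 CPM in KO cells (1.02), while its constitutive partner Hsp90ab1 had 2672 and 2734 CPM in WT and 3976 and 3727 CPM in KO cells (0.50). For each of these 3 genes both KO libraries were above both WT libraries. Hspd1, the mitochondrial chaperonin, was at 65.0 and 63.2 CPM in WT, and its KO libraries lay apart from each other at 82.3 and 108.8 CPM (0.57). Without the second of these KO libraries its log2 difference was 0.33. Hspe1 showed the smallest difference, from 83.3 and 82.7 CPM to 97.4 and 92.1 CPM (0.18, SE 0.097).

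**Figure D1:**
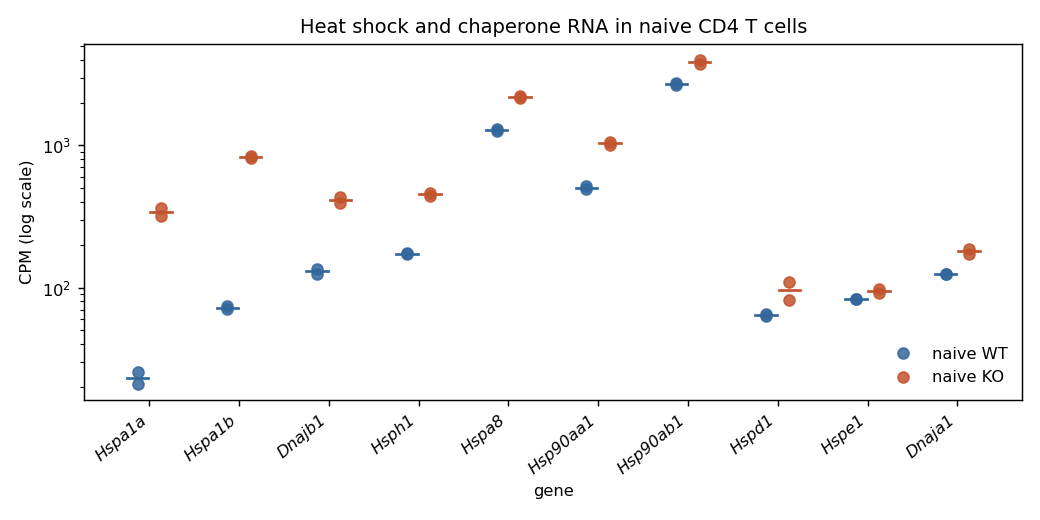
Level of each gene in the 4 naive libraries, in CPM on a log scale; points are libraries and bars are means of 2. The KO points of Hspa1a (318 and 365 CPM) lie furthest above the WT points (21.0 and 25.3 CPM), and those of Hspe1 lie nearest.

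All 10 genes had non-overlapping levels in the 2 genotypes, as did 53.9% of the 11246 genes tested in naive cells, and nothing is read from that count. Their median log2 difference was 0.89, beside 0.00 over all genes tested. In these bulk libraries, fewer cells of a type and less RNA per cell cannot be told apart.

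Other properties of the naive libraries moved with genotype too. The X-inactivation RNA Xist was at 465.9 to 498 CPM in WT and had no count in KO libraries, and the Y-linked gene Ddx3y was at 0.683 to 1.03 CPM in WT and 116 to 130 CPM in KO libraries, so sex and genotype cannot be told apart in naive cells. Mitochondrially encoded RNA took 12.6% to 12.96% of gene counts in WT and 14.3% to 16.7% in KO libraries. Reads mapped to several places, which are not counted for any gene, made up 10.9% to 11.1% in WT and 12.3% to 12.6% in KO libraries.

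Markers of other cells moved as well. The 6 erythroid and platelet markers summed to 21.5 to 22.6 CPM in WT and 5.54 to 8.09 CPM in KO libraries, with Hba-a2 at 0 in KO. The 5 B cell markers summed to 246 to 249 CPM in WT and 184 CPM in both KO libraries, nearly all of it Ighm, and none of the 5 was at 0. Of the CD8 markers, Cd8b1 was at 15.4 to 16.7 CPM in WT and 34.5 to 35.1 CPM in KO libraries, and Cd8a at 0.683 to 1.88 and 0.395 to 0.520 CPM. The 7 myeloid markers summed to 16.6 to 19.8 and 12.6 to 15.6 CPM, and the 4 NK cell markers to 11.6 to 11.98 and 11.6 to 11.8 CPM, nearly all of it Eomes, with Klra8 at 0 in all 4 libraries and Ncr1 at 0 in KO. Within the myeloid list Itgam went the other way, at 2.39 to 5.13 CPM in WT and 7.79 to 9.86 CPM in KO libraries. The gamma-delta T cell and dendritic cell lists summed to at most 8.54 CPM in any naive library. The part of these differences in the chaperone values was not tested.

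The other chaperone genes give the setting in which the 10 genes lie. Their lists, too, were chosen with earlier results of these data known, and sex goes with genotype in the naive libraries. The p-values of these lists in naive cells are therefore only a description of this contrast. A gene may stand in 2 lists, as Hspa5, Hspa9, Dnajb9, Dnajc3 and Dnajc15 do, so the counts of the lists are not independent. In naive cells 17.7% of all genes tested passed the threshold of edgeR's quasi-likelihood test (Benjamini-Hochberg adjusted p under 0.05) in either direction, 8.75% as higher and 8.92% as lower in KO. Of 23 exchange factors and HSP90 co-chaperones, 7 rose and 1 fell, with a median log2 difference of 0.08. Those with the smallest p were Cacybp (log2 difference 0.83, adjusted p = 1.7e-13), Chordc1 (0.46, adjusted p = 8.1e-04), the HSP90 immunophilin Fkbp4 (0.33, adjusted p = 0.0012) and Bag3, an inducible exchange factor (0.41, adjusted p = 0.0018). Of 30 other J-domain proteins 5 rose and 2 fell, with a median of 0.07. Among them Dnajb4, a close relative of Dnajb1, rose by 1.18 (adjusted p = 8.1e-30), from 63.1 and 64.8 CPM to 142 and 150 CPM.

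Most other HSP70 genes lay higher in naive KO cells: 7 of 8 tested, with a median log2 difference of 0.36. Of the 8, Hspa4l, a relative of Hsph1, rose by 0.96 (adjusted p = 4.0e-09) and the endoplasmic reticulum HSP70 Hspa5 by 0.40 (adjusted p = 8.6e-10). The mitochondrial HSP70 Hspa9 fell by 0.25 (adjusted p = 0.0045). Among 12 mitochondrial chaperones and proteases, 1 rose and 2 fell (median -0.04). In the endoplasmic reticulum list 7 of 16 rose and none fell (median 0.20). In the list of the cytosolic chaperonin TRiC and prefoldin 3 of 14 rose and none fell (median 0.16). Of 6 small heat shock proteins and other inducible genes (median 0.50), 2 rose: the ubiquitin gene Ubb (0.58, adjusted p = 7.6e-09) and Dedd2 (0.63, adjusted p = 6.6e-06).

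The heat shock factors did not pass the test. Hsf1 was at 37.6 and 39.98 CPM in naive WT and at 32.2 and 34.1 CPM in naive KO libraries (log2 difference -0.24, adjusted p = 0.26), and Hsf2 at 10.95 to 14.2 and 12.8 to 21.0 CPM (0.43, adjusted p = 0.17). The RNA level of Hsf1 says nothing of its activity, which is set at the protein. Immediate early genes, which many stimuli switch on fast, were mostly higher as well: 11 of 17 rose and 1 fell in naive KO cells. Nr4a1 rose by 0.99 (adjusted p = 2.1e-36), Nfkbia by 0.71 (adjusted p = 1.4e-21), Jun by 0.61 (adjusted p = 1.7e-24) and Fos by 0.53 (adjusted p = 1.4e-17), with Fos at 738 to 746 CPM in WT and 1038 to 1122 CPM in KO libraries. The part of that difference in the chaperone values was not tested.

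In the first set, most of the 10 genes differed more between WT helper and WT naive cells than between genotypes in helper cells. In WT Th1 cells against WT naive cells 76.1% of 14029 genes passed the threshold, and 76.9% did in WT Th2 cells against naive cells. With backgrounds of that size, the counts of 10 of the 10 genes (Th1) and 9 of the 10 (Th2) are no result about these genes. The shares higher and lower were 40% and 36.1% in Th1 and 40.2% and 36.6% in Th2, beside 5 and 5, and 4 and 5, of the 10 genes. Ranges over libraries did not overlap for 83.5% and 83.1% of genes. The median of all genes was 0.10 and 0.08 in these fits. The names of the deposited files carry another run or project code in naive than in helper libraries, so state and that code cannot be told apart, and the naive WT libraries also entered the choice of genes.

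Hspa1a, Hspa1b, Dnajb1 and Dnaja1 were lower in helper than in naive WT cells. Hspa1a was at 0, 0.229 and 0.390 CPM in WT Th1 libraries, from 0, 2 and 4 counts, and at 1.77, 0.957 and 3.43 CPM in WT Th2 libraries. The log2 fold changes were -6.74 (95% interval -7.80 to -5.90) and -3.50 (-4.17 to -2.85). For Hspa1b they were -6.10 in Th1 and -4.13 in Th2 cells, for Dnajb1 -1.24 and -1.09, and for Dnaja1 -1.78 and -2.08. Dnaja1 was at 124 CPM in naive WT libraries and at 35.9, 37.7 and 40.5 CPM in WT Th1 libraries. Hsph1 was close to level in the first set, with log2 fold changes of -0.22 (95% interval -0.40 to -0.03) and -0.23 (-0.41 to -0.04). In untransduced WT Th1 libraries of the second experiment Hsph1 was lower, at 100 and 107 CPM, beside 175 and 172 CPM in naive WT libraries. No call is read for these genes here, since the naive WT libraries entered their choice.

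The HSP90 and mitochondrial genes were higher in helper cells of the first set than in naive WT cells. Hsp90ab1 stood at 6754, 6809 and 6623 CPM in WT Th1 and at 5650, 5572 and 5932 CPM in WT Th2 libraries, log2 fold changes of 1.24 (SE 0.059) and 1.06 (SE 0.059). Hspd1 was at 255, 231 and 231 CPM in WT Th1 and at 144, 148 and 149 CPM in WT Th2 libraries, log2 fold changes of 1.82 and 1.18. Those of Hspe1 were 0.79 and 0.65, and those of Hsp90aa1 0.90 and 0.35. Hspa8 had 0.44 in Th1 and -0.03 in Th2 cells (95% interval -0.17 to 0.11). In untransduced WT Th1 libraries of the second experiment Hsp90ab1 was at 3416 and 2947 CPM only, beside 2672 and 2734 CPM in naive WT. Hspd1 (294 and 243 CPM), Hsp90aa1 (794 and 669 CPM) and Hspe1 (117 and 114 CPM) were above their naive WT levels there too. No fit compared that experiment with naive cells.

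The other chaperone lists are read against the 40% of all genes that were higher and the 36.1% that were lower in WT Th1 than in WT naive cells. In the TRiC and prefoldin list 12 of 14 rose and none fell (median log2 fold change 1.13, beside 0.10 over all genes), with Tcp1 at 2.17, Cct7 at 1.42 and Cct4 at 1.34. Of 16 endoplasmic reticulum chaperones 12 rose and 2 fell, among them P4hb (2.57) and Dnajb9, which fell by 3.99. Of 12 mitochondrial genes 10 rose and 1 fell, led by the protease Lonp1 (2.29). Of 30 other J-domain proteins 9 rose and 9 fell (median -0.08), of 23 exchange factors and co-chaperones 15 rose and 5 fell (0.41), and of 8 other HSP70 genes 5 rose and 1 fell. The small heat shock protein list had 3 of 7 higher and 3 lower, and the list of heat shock factors and regulators 4 of 5 higher and 1 lower. Hsf1 fell by 1.08 (adjusted p = 3.4e-07) and Hsf2 rose by 1.01 (adjusted p = 4.8e-05), while 14 of 18 immediate early genes fell and 3 rose.

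**Figure D2:**
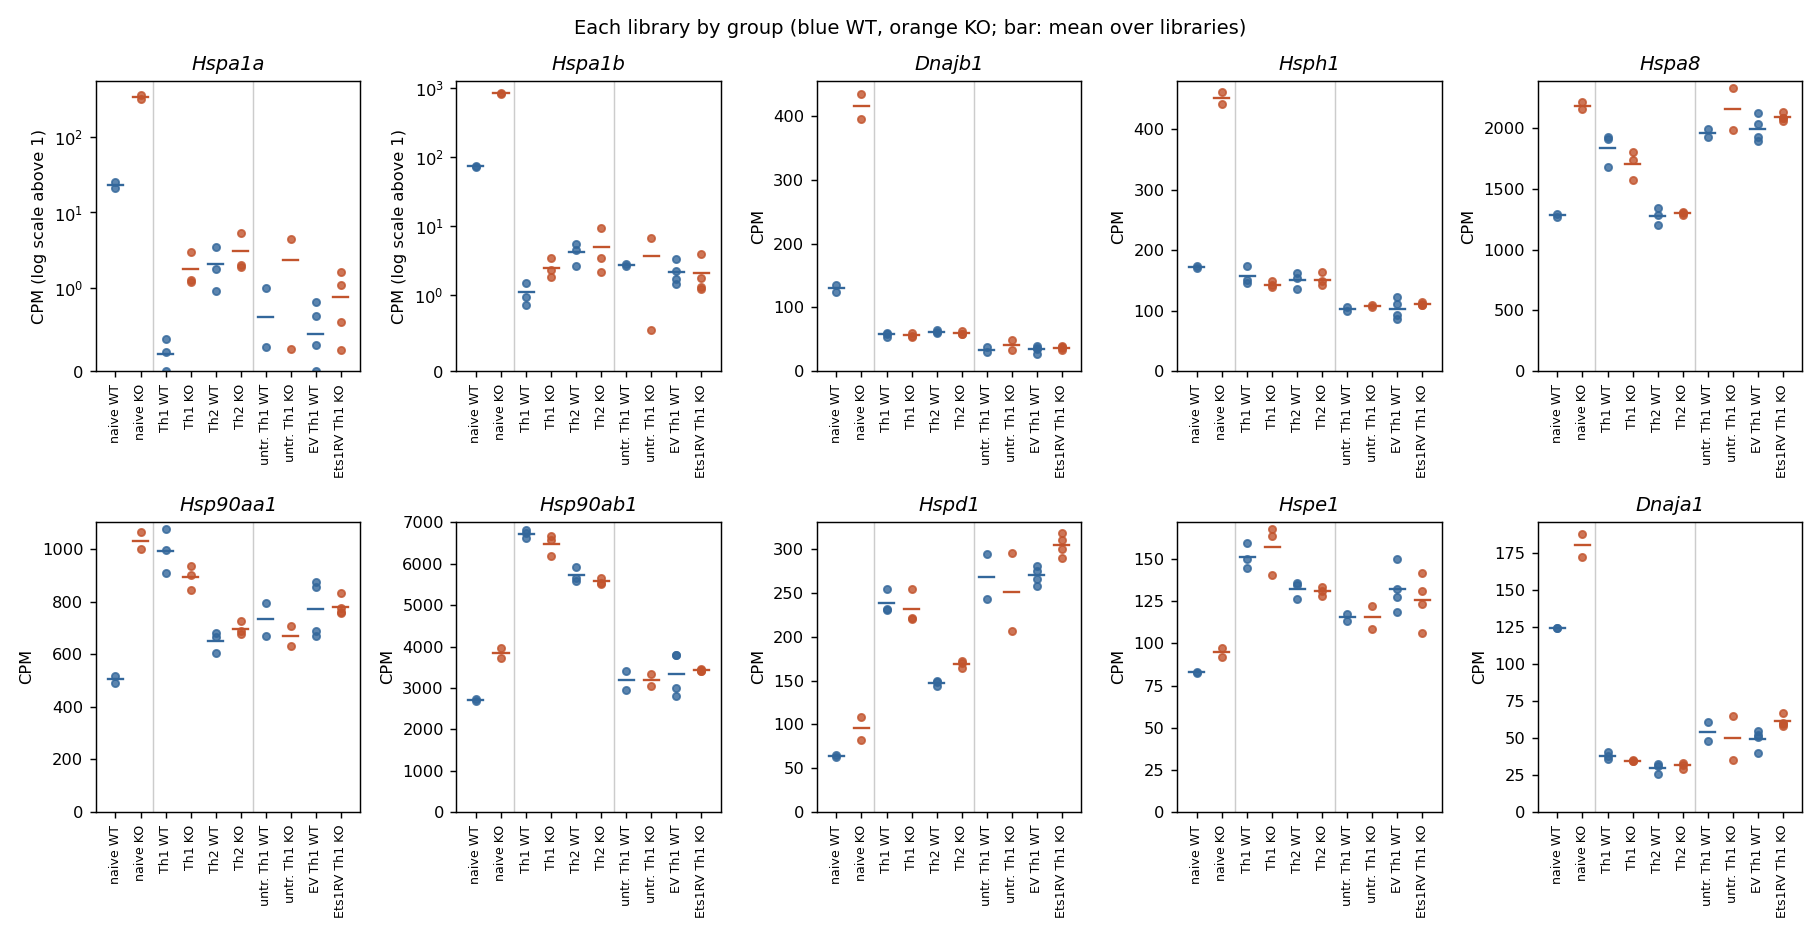
CPM of each gene in every labelled library, by group (untr., untransduced), with bars at the mean over libraries; grey lines part the naive, first and second sets, and the Hspa1a and Hspa1b axes are logarithmic above 1. Hspa1a, Hspa1b, Dnajb1 and Dnaja1 are highest in naive cells, and Hsp90ab1 is highest in the first Th1 set (6188 to 6809 CPM).

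Levels can be set side by side between genes only per length of exon. Per kilobase, Hsp90ab1 was at 901 ± 14.6 CPM (SD, n = 2) in naive WT cells, Hspa8 at 298 ± 4.16, Hsp90aa1 at 128 ± 4.46, Hspe1 at 56.3 ± 0.30 and Dnajb1 at 40.5 ± 2.64. Hspa1b (25.8 ± 0.63), Hspd1 (24.3 ± 0.48) and Hsph1 (23.8 ± 0.34) were close together, and Dnaja1 (14.4 ± 0.028) and Hspa1a (7.81 ± 1.01) were lowest. In naive KO cells Hspa1b, at 295 ± 7.87 CPM per kilobase, and Dnajb1, at 129 ± 8.56, stood near the levels of Hspa8 and Hsp90aa1 in WT cells. In KO cells Hspa8 and Hsp90aa1 were themselves higher, at 507 ± 10.2 and 262 ± 11.1. In WT Th1 cells Hsp90ab1 led again (2244 ± 31.8, n = 3) and Hspa1a was last (0.070 ± 0.066). Reads that fit several genes are not counted, so the order of genes is uncertain. Of stretches of 38 bases, 65.8% of Hspa1b, 63.7% of Hspa1a, 61.1% of Hsp90aa1 and 56.5% of Hspa8 recur in transcripts of other genes. For Hsp90ab1 and Dnajb1 the shares are 9.38% and 0.845%.

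Ordered by mean CPM over the 10 labelled groups, the naive KO group was first for Hspa1a, Hspa1b, Dnajb1, Hsph1, Hspa8, Hsp90aa1 and Dnaja1. The naive WT group was last for Hsp90aa1, Hsp90ab1, Hspd1 and Hspe1. Both naive groups entered the choice of the genes, so their places in the order are no result about these genes. Neighbours in that order mostly could not be told apart: of 9 neighbouring pairs, the ranges over libraries overlapped in 7 for Hspa1a, Hspa1b, Hspa8 and Hsp90aa1, in 6 for Dnajb1, Hsph1 and Hspe1, in 5 for Hsp90ab1 and Dnaja1, and in 4 for Hspd1. Both naive groups stood apart from each other and from all helper groups for Hspa1a, Hspa1b, Dnajb1 and Dnaja1. Such gaps were common: 53.9% of genes tested did not overlap between the naive genotypes. Between WT naive cells and WT Th1 or Th2 cells of the first set 83.5% and 83.1% did not. The order was not counted over all genes, so nothing is read from these counts.

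In Th1 and Th2 cells of the first set, 8 of the 10 genes differed little between genotypes, and Hspa1a and Hspa1b are given singly. In Th1 cells 1 of the 10 passed, as higher in KO, beside 3.66% of 12616 genes (2.16% higher, 1.51% lower). In Th2 cells none did, beside 0.325% (0.103% higher, 0.222% lower); 1181 genes had an unadjusted p under 0.05 there, and 79 passed in DESeq2, none of the 10 among them. The gene was Hspa1a, with 0, 2 and 4 counts (0, 0.229 and 0.390 CPM) in the WT and 10, 12 and 29 counts (1.18, 1.26 and 2.94 CPM) in the KO Th1 libraries. The KO libraries all lay above the WT libraries, and the log2 fold change was 3.01 (SE 0.79, 95% interval 1.44 to 4.76, edgeR adjusted p = 0.033). The call rests on few counts: it was lost without WT library 1 (adjusted p = 0.16), WT library 2 (0.075) or KO library 3 (0.15), and when the counts of Hspa1a and Hspa1b were summed.

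Hspa1b in Th1 cells was at 0.861, 1.49 and 0.975 CPM in WT and at 2.25, 1.79 and 3.35 CPM in KO libraries. Its groups did not overlap, nor did those of Hspa1a and, with KO lower, Dnaja1, as was so for 19.6% of all genes tested, and its log2 fold change of 1.15 (95% interval 0.05 to 2.28) did not pass (adjusted p = 0.28). Both genes stayed far below naive levels in every Th1 library. In Th2 cells Hspa1a was at 1.77, 0.957 and 3.43 CPM in WT and at 1.86, 2.03 and 5.29 CPM in KO libraries, overlapping, with a log2 difference of 0.55 (95% interval -0.49 to 1.59, adjusted p = 0.83). Hspa1b overlapped as well (0.22, 95% interval -0.63 to 1.08).

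The other 8 genes differed by at most 0.16 on the log2 scale in Th1 and in Th2 cells, in either direction. The largest were Hsp90aa1 in Th1 cells (-0.16, 95% interval -0.30 to -0.02, adjusted p = 0.24), at 1074, 996 and 907 CPM in WT and 845, 936 and 903 CPM in KO libraries, and Hspd1 in Th2 cells (0.16, 95% interval 0.02 to 0.31, adjusted p = 0.46). For Hspd1 the Th2 groups did not overlap, at 144 to 149 CPM in WT and 164 to 172 CPM in KO libraries, as for 15.1% of genes. The median over the 10 genes was -0.06 in Th1 and 0.01 in Th2 cells. All libraries of the first set had Xist counts (196 CPM or more) and no Ddx3y count, so the Xist and Ddx3y difference of the naive libraries was absent here.

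The genotype effect did not differ detectably between Th1 and Th2 cells for any of the 10 genes, and no gene of the 12616 passed that test in edgeR, while 1225 had an unadjusted p under 0.05 and 20 passed in DESeq2. For Hspa1a the difference between the effects was 2.47 (95% interval 0.48 to 4.61, adjusted p = 0.42). Of the other chaperone lists in Th1 cells, single genes passed: Dnajc9 rose by 0.35 (adjusted p = 0.022), Clpx, the unfoldase of a mitochondrial protease, by 0.53 (adjusted p = 0.0093), and Dnajc11 and Fkbp5 fell by 0.44 (adjusted p = 0.021) and by 0.40 (adjusted p = 0.0098). The lists of other HSP70 genes (7 tested), small heat shock proteins (6), TRiC and prefoldin (14), endoplasmic reticulum chaperones (16) and heat shock factors (5) had no call in Th1 cells. In Th2 cells no gene of any list passed. Hsf1 was at -0.17 in Th1 (adjusted p = 0.63) and 0.17 in Th2 cells (adjusted p = 0.84), and 2 of 18 immediate early genes, Ier3 and Btg2, rose in Th1 cells.

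**Figure D3:**
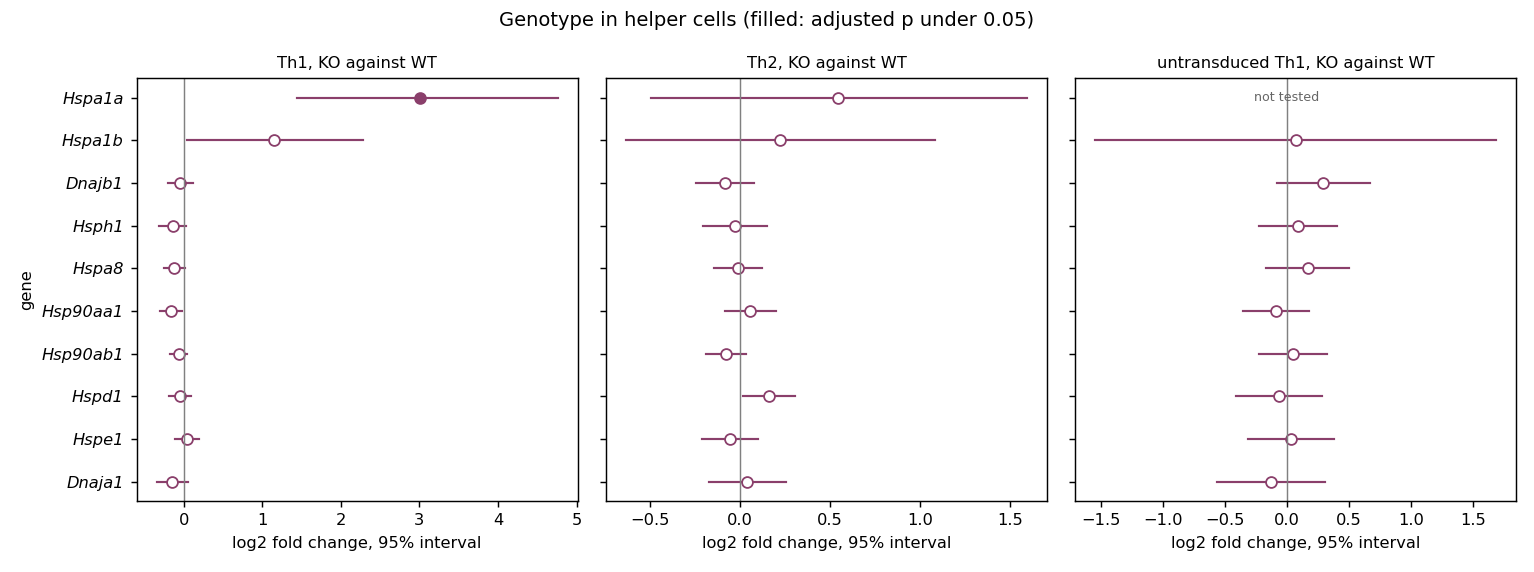
Log2 fold change of KO against WT for each gene, with its 95% interval, in the first Th1 cells, Th2 cells and untransduced Th1 cells of the second experiment; filled points passed the test. Only Hspa1a in Th1 cells is filled (3.01), with the widest interval of its panel, and the horizontal scales differ.

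The helper fates differed more than the genotypes did. Between WT Th1 and WT Th2 cells 29.5% of genes passed, 13.7% higher and 15.8% lower in Th1, and 7 of the 10 did: 5 higher and 2 lower in Th1 cells. Hspd1 had the largest rise, at 231 to 255 CPM in Th1 and 144 to 149 CPM in Th2 libraries (log2 fold change 0.63, SE 0.069, adjusted p = 1.3e-06). Hsp90aa1 was at 907 to 1074 and 605 to 682 CPM (0.54, SE 0.068, adjusted p = 6.9e-06), and Hspa8 at 1674 to 1920 and 1204 to 1338 CPM (0.46, SE 0.063, adjusted p = 2.0e-05). The fates did not overlap for 6 of the 10 genes with Th1 higher, these 3 among them, and for 2 with Th1 lower. Of all genes tested 41.4% did not overlap, in either direction.

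Smaller rises in WT Th1 cells were those of Dnaja1 (0.29, adjusted p = 0.037) and Hsp90ab1 (0.17, adjusted p = 0.022). These 2 calls were lost in some fits: Hsp90ab1 without WT Th1 library 1 or 2 or without WT Th2 library 1 or 2 (adjusted p of 0.059 to 0.072), and Dnaja1 without WT Th1 library 2 or 3 or WT Th2 library 1 (0.065 to 0.20) and with DESeq2 (0.05001). The inducible pair went the other way: the log2 fold change of Hspa1a was -3.27 (adjusted p = 0.0034) and that of Hspa1b -1.98 (adjusted p = 0.0055), with Hspa1b at 0.861 to 1.49 CPM in WT Th1 and 2.60 to 5.40 CPM in WT Th2 libraries. Dnajb1, Hsph1 and Hspe1 did not pass (-0.17, -0.00 and 0.13).

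In KO cells 17.5% of genes passed between the fates, 8.01% higher and 9.51% lower in Th1, and 5 of the 10 genes were higher in Th1 with none lower. They were Hspd1 (0.42, adjusted p = 2.3e-04), Hspa8 (0.35, adjusted p = 6.1e-04), Hsp90aa1 (0.32, adjusted p = 0.0022), Hspe1 (0.23, adjusted p = 0.039) and Hsp90ab1 (0.18, adjusted p = 0.022). KO Th1 and KO Th2 libraries of Hspd1 were at 221 to 254 and 164 to 172 CPM. The fates did not overlap for 6 of the 10 genes, Hspd1 among them and all higher in Th1, beside 36.4% of genes in either direction. The count fell to 3 without KO Th1 library 2, KO Th2 library 2 or KO Th2 library 3. Hspe1 lost its call without any 1 of the 6 libraries except KO Th1 library 3 (adjusted p of 0.062 to 0.16), and Hsp90ab1 without KO Th1 library 2 or 3 or KO Th2 library 2 or 3 (0.060 to 0.093). With counts taken without strand Hspe1 did not pass either (0.093); it overlaps Hspd1 at their 5′ ends, on the opposite strand. Hspa1a (-0.80, adjusted p = 0.29) and Hspa1b (-1.05, adjusted p = 0.099) did not pass in KO cells; Hspa1b did without KO Th2 library 1 (0.025) and with no filter on low counts (-1.03, adjusted p = 0.0033). Whether the fates differ between genotypes is the same test as the difference of genotype effects above, which no gene passed.

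**Figure D4:**
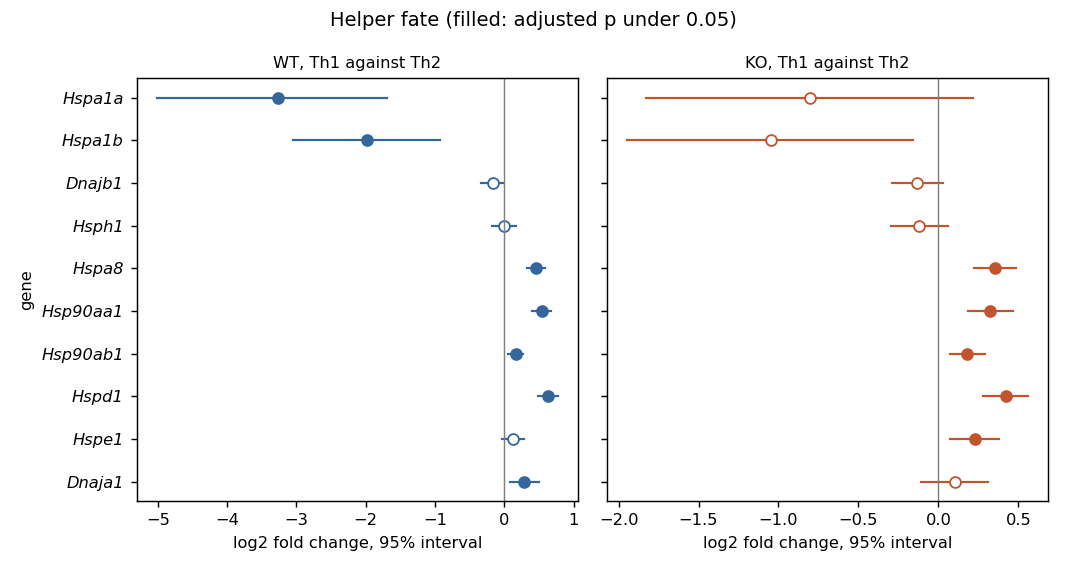
Log2 fold change of Th1 against Th2 cells for each gene with its 95% interval, in WT (left) and KO (right) cells of the first set; filled points passed the test. Hspd1, Hsp90aa1 and Hspa8 lie right of 0 in both panels, and Hspa1a and Hspa1b lie left of 0, filled in WT only.

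The other lists are read against the 13.7% of all genes higher and the 15.8% lower in WT Th1 than in WT Th2 cells. In WT cells 9 of 23 exchange factors and co-chaperones were higher and 1 lower in Th1 than in Th2, led by Cacybp (0.88, adjusted p = 5.1e-07) and the HSP90 cyclophilin Ppid (0.82, adjusted p = 4.2e-05), with Stip1, which links HSP70 to HSP90, at 0.37 (adjusted p = 1.7e-04). In the TRiC and prefoldin list 5 of 14 were higher and 1 lower; Cct3 rose by 0.56 and Cct8 by 0.45, and Pfdn5 fell by 0.36. The endoplasmic reticulum list had 1 of 16 higher and 3 lower, among them Canx (-0.37) and P4hb (-0.38). Hsf2 was at 24.2 to 28.7 CPM in WT Th1 and at 10.7 to 12.6 CPM in WT Th2 libraries, a rise of 1.12 (adjusted p = 9.2e-06), and it rose in KO cells too (0.87, adjusted p = 2.5e-04). Hsf1 did not pass in either (0.34, adjusted p = 0.11 in WT; 0.00, adjusted p = 1.0 in KO). Of 18 immediate early genes, 11 were lower and 2 higher in WT Th1 than in WT Th2 cells.

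**Figure D5:**
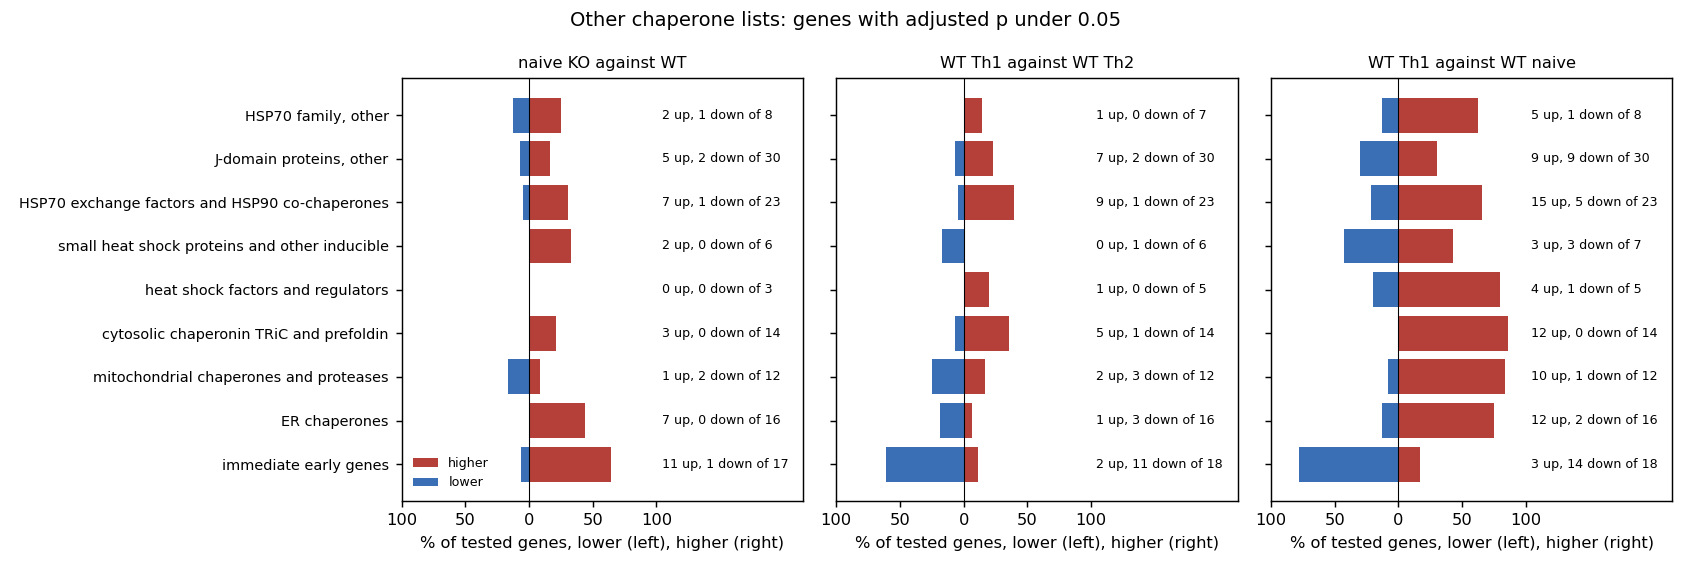
Percent of the tested genes of each other chaperone list and of the immediate early genes that passed the test as higher (right, red) or lower (left, blue), for 3 comparisons, with counts beside the bars. Endoplasmic reticulum chaperones had 7 of 16 higher and none lower in naive KO cells, and 12 of 14 TRiC and prefoldin genes were higher in WT Th1 than in WT naive cells.

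In the second Th1 experiment none of the genes passed in any of its 4 comparisons. Hspa1a did not reach the low-count filter, with 0 to 8 counts per library, and 9 genes were tested. Of 11072 genes 1.24% passed between untransduced KO and WT cells (0.605% higher, 0.632% lower), 0.56% between KO Ets1-RV and WT EV cells (0.298% and 0.262%), and 0.19% between KO Ets1-RV and untransduced KO cells (0.126% and 0.0632%). Between WT EV and untransduced WT cells 0% passed in edgeR, although 268 genes had an unadjusted p under 0.05, and none passed in DESeq2. The intervals were wide: for Dnajb1, untransduced KO minus WT was 0.30 on the log2 scale (95% interval -0.08 to 0.67), at 38.2 and 29.8 CPM in WT and 33.8 and 49.1 CPM in KO libraries. For Hspa1b it was 0.07 (95% interval -1.54 to 1.69), so a change of the size seen in first Th1 cells was not detectable.

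No difference with either virus was detectable in these genes. The median log2 fold change of the 9 genes was 0.01 for EV against untransduced WT cells and 0.05 for Ets1-RV against untransduced KO cells. Dnaja1 had the largest difference between KO Ets1-RV and WT EV cells (0.33, 95% interval -0.06 to 0.72), at 66.6, 60.4, 59.3 and 58.3 CPM against 54.4, 52.1, 50.4 and 39.6 CPM. Hspd1 was at 319, 300, 311 and 290 CPM in KO Ets1-RV and at 266, 281, 275 and 258 CPM in WT EV libraries (0.17, 95% interval -0.17 to 0.51). These 2 genes did not overlap between the groups, as was so for 9.55% of genes tested. Groups were also apart for Hspe1 between WT EV and untransduced WT cells (9.39% of genes), for Hsph1, Hsp90aa1 and Hsp90ab1 between KO Ets1-RV and untransduced KO cells (23.9%), and for none of the 10 between untransduced KO and WT cells (39.4%). KO Ets1-RV and WT EV cells differ in both genotype and virus.

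The 2 B numbers of this experiment gave opposite directions in untransduced cells. Within B number 1, the KO library was lower than the WT library in 8 of the 10 genes and higher in 2, where 34.2% of all genes were higher. The median log2 difference of CPM + 1 was -0.25, beside -0.155 over all genes. Within B number 2 the KO library was higher in 10 of 10 (0.25, beside 0.066), where 56.1% of all genes were higher. That KO library had the fewest gene counts of all labelled libraries, 1813288. Dnaja1 went from 60.5 to 35.1 CPM within B number 1 and from 48.1 to 65.1 CPM within B number 2. Hspd1 went from 294 to 206 CPM and from 243 to 296 CPM. With 1 library per genotype and number, these values have no test. File names mark the libraries of B number 1 with M and those of B number 2 with F. B number 1 libraries had Xist at or near 0 (0.251 CPM in WT, 0 in KO), and B number 2 libraries at 237 and 345 CPM. In the transduced cells 6 of 10 genes were higher in KO Ets1-RV than WT EV cells within B number 1, where 34.0% of all genes were, and 8 of 10 within B number 2, where 69.1% were.

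Hspa1a and Hspa1b could be told apart only in part. Of the stretches of 38 bases in the longest Hspa1a transcript, 61.8% also occur in transcripts of Hspa1b, and of those of 61 bases 56.0% do; these are the 2 read lengths named in the labels' protocols. Reads that fit both genes are not counted for either. The shares are of single stretches, while the libraries were read in pairs, so the share of reads lost is not known. Hspa1a took 22.2% to 26.2% of the counts of the pair in naive WT and 28.2% to 30.3% in naive KO libraries. Summed, the pair was at 94.6 and 96.4 CPM in naive WT and at 1128 to 1207 CPM in naive KO libraries, and at 0.861 to 1.72 CPM in WT Th1 and 3.05 to 6.29 CPM in KO Th1 libraries. Large parts of Hsp90aa1 (61.1%), Hspa8 (56.5%) and Hspd1 (50.8%) also recur at 38 bases in transcripts of other genes, most of all Gm12346, Gm15459 and Hspd1-ps3, so their levels are uncertain. Hsph1 (0%), Dnajb1 (0.845%) and Hsp90ab1 (9.38%) were affected little.

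Over the 28 labelled libraries, the genes whose levels most resembled 3 of the 10 were found by Pearson's r of log2(CPM + 1), with TMM-scaled CPM, among 13543 genes. The libraries fall into naive, first and second sets, and r follows mainly the differences between sets. Hspa1a resembled Gm15712 (r = 0.952), Sp3 (0.952), Ccr9 (0.950), Kcna2 (0.948) and Clk4 (0.948). For Hsp90ab1 they were Kif23 (0.946), P4ha1 (0.943), Msh6 (0.941), Arhgap19 (0.936) and Higd1a (0.931). Hspd1 lay nearest to Etf1 (0.985), Acsl4 (0.979), Eif2s1 (0.974), Tomm5 (0.974) and Etv5 (0.974).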

How the data were processed

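The authors deposited raw read counts per gene for 36 RNA-seq libraries, and their processing notes name STAR, version 2.5.0a, and the build GRCm38. Strand-specific libraries were read in pairs, per the labels' protocols. Counts of the strand holding 93.3% to 95.2% of stranded gene counts were used; the 4 summary lines took 63.6% to 76.0% of reads and stayed out. GENCODE M21 symbols matched 45143 identifiers. The 10 genes and all lists were chosen with earlier results of these data known.

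Log2 fold changes, standard errors and adjusted p are from edgeR 4.0.16 in R 4.3.3 (quasi-likelihood test, TMM, filterByExpr, Benjamini-Hochberg over all genes, threshold 0.05), tested on simulated counts; DESeq2 1.42.0 was an alternative. Naive libraries were fitted alone, first Th1 and Th2 libraries in 4 group means, the second experiment in 4, and comparisons with naive cells in 6. Levels are CPM of total gene counts. All 10 genes are named; of each other list, at most 4 passing genes with the smallest p, plus Hsf1 and Hsf2. Library pairs of a group differed by more than sampling noise. Values limited by counts cover counting error only.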

Additional observations from a re-analysis of the deposited data

Results flagged for a closer look

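In Th1 cells without virus in the second experiment, the median log2 difference of the 10 genes, KO minus WT on CPM + 1, was -0.254 within B number 1 and 0.252 within B number 2. It drew attention because the KO library lay on opposite sides of the WT library in the 2 numbers. Each side holds 1 library per genotype, so the difference was not tested. Over all 11072 genes 34.2% were higher in KO within B number 1 and 56.1% within B number 2. Among the 4 EV and 4 Ets1-RV libraries, none of 20 checks of a gene's levels in 1 group for a single outlying library was positive.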

How the results depend on the processing

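Numbers below are of the 10 genes called unless stated. Of 142 recomputed values, 132 equalled the main value or stayed within 1.5 times it (or, for the naive median, within the spread between libraries). Equal counts include 0 against 0, the outcome of every fit of the second experiment and of genotype in Th2. A main count of 0 could change only by a gain of calls, so the share of unchanged values says little. With Hspa1a and Hspa1b summed, the naive median log2 difference was 0.76, and the Th1 genotype comparison had 0 calls. Without a filter on low counts it had 2, and the test of Th1 against Th2 genotype effects had 1 (Hspa1a, adjusted p = 0.026). Leaving out 1 library gave a naive median of 0.87 to 0.91, 0 to 1 calls for genotype in Th1, 5 to 7 for fate in WT and 3 to 5 for fate in KO. It gave 0 for genotype in Th2 and for the difference of the effects. Counts against naive cells are, as above, no result about these genes.

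Counts over all genes moved more: with no filter on low counts, 835 against 462 (Th1 genotype), 224 against 41 (Th2 genotype) and 213 against 0 (difference of the effects). In the second experiment no filter gave 416 against 137, 257 against 62, 17 against 0 and 212 against 21, and each library as a sample gave 266, 441 and 126 for those but the third. DESeq2 gave 865 against 1987 in naive cells, 79 against 41 in Th2 and 34 against 21 for Ets1-RV against untransduced KO. With 1 library or B number left out, counts were 399 to 1219 (naive), 176 to 469 (Th1 genotype), 14 to 50 (Th2 genotype), 1380 to 2046 (fate in KO), and 22 to 92, 10 to 64, 0 to 5 and 0 to 38 (second experiment).

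With the replicate number as a replicate block the counts of the 10 genes called did not change (1 in Th1, 7 and 5 for fate, 10 and 9 against naive, 0 elsewhere); counts over all genes rose to 63 (Th2), 212, 95 and 45 (second experiment). No label says that a number marks a shared animal, litter, batch or day. Correlations of same-numbered deviations were -0.05 in naive cells, -0.11 to 0.12 between genotypes and -0.00 to 0.24 between fates in the first set, and 0.04 to 0.33 over the 4 comparisons of the second experiment. No comparison of 3 pairs had all above 0.1. In the second experiment the number goes with M or F in file names and with Xist, so there the numbers may pair samples. Depth limits Hspa1a and Hspa1b in helper cells.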

Other observations

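In the first Th1 and Th2 set, the library with T number 3 had the highest Hspa1a level of its group in 4 of 4 groups, and the highest Hspa1b level in 3 of 4. Among the other 8 genes the highest count of groups for 1 T number was 3 of 4, reached by Hsp90aa1 with T number 2. This was seen after the values were known and was not tested.

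The 8 libraries whose title and transduction label name different viruses had levels inside those of the labelled second Th1 libraries or below them. Hspa1b was at 0 to 2.34 CPM (median 1.35), Dnajb1 at 31.7 to 40.1 CPM (35.4), Hspa8 at 1807 to 2108 CPM (2009), Hsp90ab1 at 2719 to 3343 CPM (3034), Hspd1 at 211 to 284 CPM (241) and Dnaja1 at 38.2 to 54.1 CPM (48.3). The highest level of each of the 10 genes in these libraries was below the highest in the labelled ones.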
